A study of Mus musculus with 2 samples.

Results

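The genes described here are 10 of the measured genes that build, load and control MHC class I molecules in mouse haematopoietic stem and progenitor cells. They are B2m, H2-K1, H2-D1, H2-Q7, H2-T23, Tap1, Tapbp, Nlrc5, Psmb8 and Psmb9, chosen by name from the 32285 genes of the count matrices, and all 10 were found and passed the filter on low counts. Single-cell RNA was counted in LSK cells from femur and tibia, the marrow fraction with Sca-1 and high Kit but no lineage markers, which holds stem cells and multipotent progenitors. The mice were young wild-type (WT) animals and young IκB-negative animals (so the labels), whose cells the authors' cell table names IkBKO. The labels do not give the altered IκB genes, strain, sex, number of mice per pool or exact age. Each of 2 replicates was 1 droplet library that held cells of both genotypes, told apart by antibody tags, so the data form 4 pools: WT and IkBKO of replicates 1 and 2. No label says that the pools came from separate mice, so the spread among pools may be technical only. With 4 pools and the replicate fitted as a block, a genotype fit has 1 residual degree of freedom. The p-values therefore rest largely on spread that the test program, edgeR, shares over all genes.

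MHC class I molecules show peptides of the cell's own proteins to CD8+ T cells, and natural killer cells read their presence as a sign of a healthy cell. A polymorphic heavy chain pairs with β2-microglobulin, the peptide is cut by the proteasome, carried into the endoplasmic reticulum by the TAP transporter and loaded with the help of tapasin. Interferon-γ swaps catalytic subunits of the constitutive proteasome for immunosubunits, and NF-κB, interferon regulatory factors and the NLRC5 complex are known to act on class I promoters. Blood stem cells carry class I molecules on their surface under resting conditions.

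Of the 10 genes, 8 lie on chromosome 17 in or beside the H2 complex, B2m lies on chromosome 2 and Nlrc5 on chromosome 8 (GRCm38, the build named in the submitters' processing notes as mm10). H2-K1 spans 33996017 to 34000347 on the minus strand, and H2-D1 spans 35262730 to 35267499, H2-Q7 35439155 to 35443773 and Psmb8 34197721 to 34201454, all on the plus strand. Psmb9 (34181987 to 34187764, minus strand) and Tap1 (34187553 to 34197225, plus strand) run head to head and overlap at their starts. H2-T23 (36029773 to 36032855, minus strand) and Tapbp (33915899 to 33929292, plus strand) lie at the outer ends of the 8. B2m spans 122147686 to 122153083 on chromosome 2 and Nlrc5 94434356 to 94527272 on chromosome 8, both on the plus strand.

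The promoters of H2-K1, H2-Q7 and B2m are shown because they hold all 3 motifs searched, that of H2-T23 because it holds 1 of them, and the window of Tap1 because it is also most of the Psmb9 promoter. Each window is 300 bases, from 250 before to 50 after the start of the gene, in the gene's own direction, from RefSeq on GRCm38.p6. The start is RefSeq's, which for H2-T23, H2-D1, Tapbp, Psmb8 and Psmb9 lies inside the gene as the annotation above gives it. Capitals mark matches on either strand to the NF-κB consensus, to TTTCNNTT (part of the interferon-stimulated response element) and to TGACG followed after 18 to 22 bases by ATTGG (an X2 box and Y box of the class I enhanceosome). The motifs were chosen after the promoters had been read. The windows are chr17:34000298-34000597 (minus strand) for H2-K1, chr17:35438905-35439204 (plus strand) for H2-Q7, chr17:36032652-36032951 (minus strand) for H2-T23, chr2:122147437-122147736 (plus strand) for B2m and chr17:34187306-34187605 (plus strand) for Tap1.
H2-K1: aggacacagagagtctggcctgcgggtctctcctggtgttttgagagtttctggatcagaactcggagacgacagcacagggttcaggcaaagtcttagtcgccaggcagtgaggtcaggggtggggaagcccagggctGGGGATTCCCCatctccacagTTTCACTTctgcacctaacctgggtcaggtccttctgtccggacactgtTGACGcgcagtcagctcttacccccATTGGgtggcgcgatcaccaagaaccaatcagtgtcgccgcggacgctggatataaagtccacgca
H2-Q7: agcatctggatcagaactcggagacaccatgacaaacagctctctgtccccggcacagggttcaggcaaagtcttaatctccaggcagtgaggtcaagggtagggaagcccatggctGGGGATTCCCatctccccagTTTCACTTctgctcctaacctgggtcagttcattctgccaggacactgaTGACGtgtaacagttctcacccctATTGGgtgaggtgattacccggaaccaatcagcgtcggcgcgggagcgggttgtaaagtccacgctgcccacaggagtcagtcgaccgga
H2-T23: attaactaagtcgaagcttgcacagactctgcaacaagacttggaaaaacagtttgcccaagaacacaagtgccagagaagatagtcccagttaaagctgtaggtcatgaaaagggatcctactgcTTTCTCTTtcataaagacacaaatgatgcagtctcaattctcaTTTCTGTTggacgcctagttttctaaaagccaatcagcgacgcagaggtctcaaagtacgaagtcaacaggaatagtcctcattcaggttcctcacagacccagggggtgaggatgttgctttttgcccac
B2m: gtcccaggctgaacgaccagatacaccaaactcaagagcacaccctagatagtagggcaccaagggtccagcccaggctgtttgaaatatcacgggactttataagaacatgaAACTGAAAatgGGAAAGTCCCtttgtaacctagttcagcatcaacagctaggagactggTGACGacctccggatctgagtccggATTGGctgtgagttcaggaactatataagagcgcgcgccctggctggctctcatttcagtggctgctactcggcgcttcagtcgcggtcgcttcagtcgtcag
Tap1: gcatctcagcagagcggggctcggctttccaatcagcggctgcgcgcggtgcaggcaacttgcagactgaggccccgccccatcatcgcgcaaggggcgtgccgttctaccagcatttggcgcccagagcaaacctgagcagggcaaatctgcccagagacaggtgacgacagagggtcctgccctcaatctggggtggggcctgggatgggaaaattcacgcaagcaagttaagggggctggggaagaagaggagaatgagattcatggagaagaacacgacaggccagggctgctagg
The NF-κB consensus was found in 4 of the 9 members with a window (B2m, H2-K1, H2-D1 and H2-Q7), and 8.18% of all 27025 promoter windows hold it. TTTCNNTT was found in those 4 and in H2-T23, against 24.2% of all windows. The spaced TGACG and ATTGG pair was found in the same 4 as the NF-κB consensus, with a gap of 20 bases in B2m, H2-K1 and H2-D1 and of 19 bases in H2-Q7, against 0.289% of all windows. Tap1, Tapbp, Psmb8 and Psmb9 held none of the 3 in these windows, and the windows of Tap1 and Psmb9 share 275 bases. Matches to TTTCNNTT and to the other motifs did not overlap in the sequences shown. A match describes letters only and was not tied to any factor's binding.

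The pools held 3721 WT and 3962 IkBKO cells in replicate 1 and 4963 and 5383 in replicate 2, with 42165571 to 62834572 UMIs (distinct RNA molecules) per pool. IkBKO cells carried more UMIs per cell than WT cells in both replicates, with medians of 13709 against 9963 in replicate 1 and 9641 against 6983 in replicate 2. The label was checked on IκB RNA: Nfkbie (IκBε) fell by 2.29 ± 0.18 (SE) and Nfkbib (IκBβ) fell by 1.19 ± 0.13 on the log2 scale (edgeR adjusted p = 0.00277 and 0.00733), whereas Nfkbia (IκBα) was at −0.17 ± 0.09 (adjusted p = 0.253). The counts come from 3′ ends, so a tag outside an altered part checks nothing. The LSK genes Kit and Ly6a (Sca-1) were detected in every pool, with Kit at 118 to 272 CPM and Ly6a at 52.4 to 117 CPM (the gene's UMIs after scaling each pool to 1000000 UMIs). Both differed by genotype: in IkBKO cells Kit fell by 0.53 ± 0.09 and Ly6a rose by 0.66 ± 0.13 (edgeR adjusted p = 0.0214 and 0.0334). Markers of other cells were present too. Summed over 8 dendritic cell markers the level was 307 to 318 CPM in the WT pools and 1059 to 1707 CPM in IkBKO pools, over 6 monocyte markers 304 to 469.6 CPM and 416 to 1246 CPM, and over 6 neutrophil markers 1159.8 to 1344 CPM and 167 to 201 CPM, with no defining marker at 0 in all pools. The 8 dendritic cell markers were Cd74, H2-Aa, H2-Ab1, H2-Eb1 and Ciita, which belong to MHC class II presentation, and Itgax, Batf3 and Siglech; the last 3 stood at 1.30 to 15.9 CPM each, and Cd74 alone at 113 to 698 CPM. Between passing cells of the 2 libraries 39 barcodes were shared, 0.508% of those of replicate 1.

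The first comparison was between genotypes over all LSK cells. Class I and immunoproteasome RNA was higher in IkBKO cells: 8 of the 10 genes rose, by 0.37 (Tapbp) to 0.92 (H2-Q7) on the log2 scale, 0 fell, and H2-K1 and H2-T23 did not pass (edgeR, adjusted p of at most 0.05). Over all genes tested, 13.3% of 14742 were called, 7.13% higher and 6.19% lower; with scaling by cells in place of UMIs these were 46.5% and 3.06%, since the median of all genes then stood at 0.33. The median log2 fold change of the 10 genes was 0.44, beside −0.0064 over all genes tested. Together these genes took 0.406% and 0.443% of all UMIs in WT cells of replicates 1 and 2 and 0.518% and 0.528% in IkBKO cells. Each fold change is IkBKO over WT and is given with a standard error (SE). The SE was derived from the test, as the absolute log2 fold change over the square root of edgeR's F statistic. edgeR's TMM scaling placed the 10 genes a median of 0.09 log2 units above the plain ratio of CPM values.

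Among the heavy chains, which hold the peptide, the genotype difference was widest for H2-Q7, a nonclassical chain of the Qa-2 family. H2-Q7 stood at 211 and 250.5 CPM in the WT pools and at 372 and 449 CPM in the IkBKO pools of replicates 1 and 2, so both IkBKO pools lay well above both WT pools. It rose by 0.92 ± 0.08 (adjusted p = 0.00392). The classical chain H2-D1 stood at 676 and 729.7 CPM in the WT pools and at 893 and 845 CPM in the IkBKO pools and rose by 0.40 ± 0.08 (adjusted p = 0.0345). The other classical chain, H2-K1, was at 980.2 and 1101 CPM in the WT pools and 1122 and 1179 CPM in the IkBKO pools. The H2-K1 pools did not overlap either, but the lower IkBKO pool lay close to the upper WT pool, and the difference did not pass (0.24 ± 0.07, adjusted p = 0.0681).

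H2-T23 encodes Qa-1, the nonclassical chain that presents peptides of class I leader sequences to NKG2A receptors of natural killer cells. It stood at 137 and 186 CPM in the WT pools and at 110.4 and 143 CPM in the IkBKO pools, lower in IkBKO in each replicate but with overlapping groups. The difference did not pass (−0.26 ± 0.08, adjusted p = 0.0957), and scaled by the number of cells instead of by UMIs H2-T23 was at 0.08. H2-T23 was the only one of the 10 genes that was lower in IkBKO cells in both replicates. Of the 411 windows of 90 bases in the last 500 bases of its transcripts, 13.4% occur in another gene, against 4.73% of 528 for H2-Q7 (shared with H2-Q5), 0.151% of 1323 for H2-K1 and 0 for the other 7, so counts of H2-T23 and H2-Q7 are the least certain. H2-T23 also overlaps A930015D03Rik on the other strand, and no source used here says whether strand was used in counting.

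B2m, the invariant light chain of every class I molecule, stood at 1152 and 1290.3 CPM in the WT pools and at 1474 and 1520.2 CPM in the IkBKO pools. The IkBKO pools lay above the WT pools, and B2m rose by 0.39 ± 0.07 (adjusted p = 0.0221). Per cell this was 13.5 and 10.96 UMIs in WT and 23.4 and 17.3 UMIs in IkBKO cells.

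Of the peptide transport and loading genes, Tap1, a subunit of the transporter that carries peptides into the endoplasmic reticulum, stood at 73.7 and 61.1 CPM in the WT pools and at 107 and 91.4 CPM in the IkBKO pools. Both IkBKO pools were above both WT pools, and Tap1 rose by 0.65 ± 0.08 (adjusted p = 0.00779). Tapbp, which encodes the loading chaperone tapasin, stood at 64.9 and 61.2 CPM in the WT pools and at 82.9 and 70.4 CPM in the IkBKO pools and rose by 0.37 ± 0.09 (adjusted p = 0.0455). The call of Tapbp was lost without the 1503 cells past a marker limit of another cell type (0.29, adjusted p = 0.0964), while the other 7 called genes stayed called there, beside 16.5% of all genes.

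Nlrc5, the transactivator that acts on class I promoters, was the scarcest of the 10 genes, at 12.7 and 13.4 CPM in the WT pools and 18.2 and 17.4 CPM in the IkBKO pools. The WT pools and the IkBKO pools each lay close together, and Nlrc5 rose by 0.54 ± 0.10 (adjusted p = 0.0244). Psmb8, the immunosubunit β5i, stood at 541 and 515 CPM in the WT pools and at 719 and 661 CPM in the IkBKO pools and rose by 0.48 ± 0.07 (adjusted p = 0.0167). Psmb9, the immunosubunit β1i, stood at 207 and 224 CPM in the WT pools and at 285 and 299 CPM in the IkBKO pools and rose by 0.53 ± 0.09 (adjusted p = 0.0187). For both immunosubunits the IkBKO pools lay above the WT pools.

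**Figure D1:**
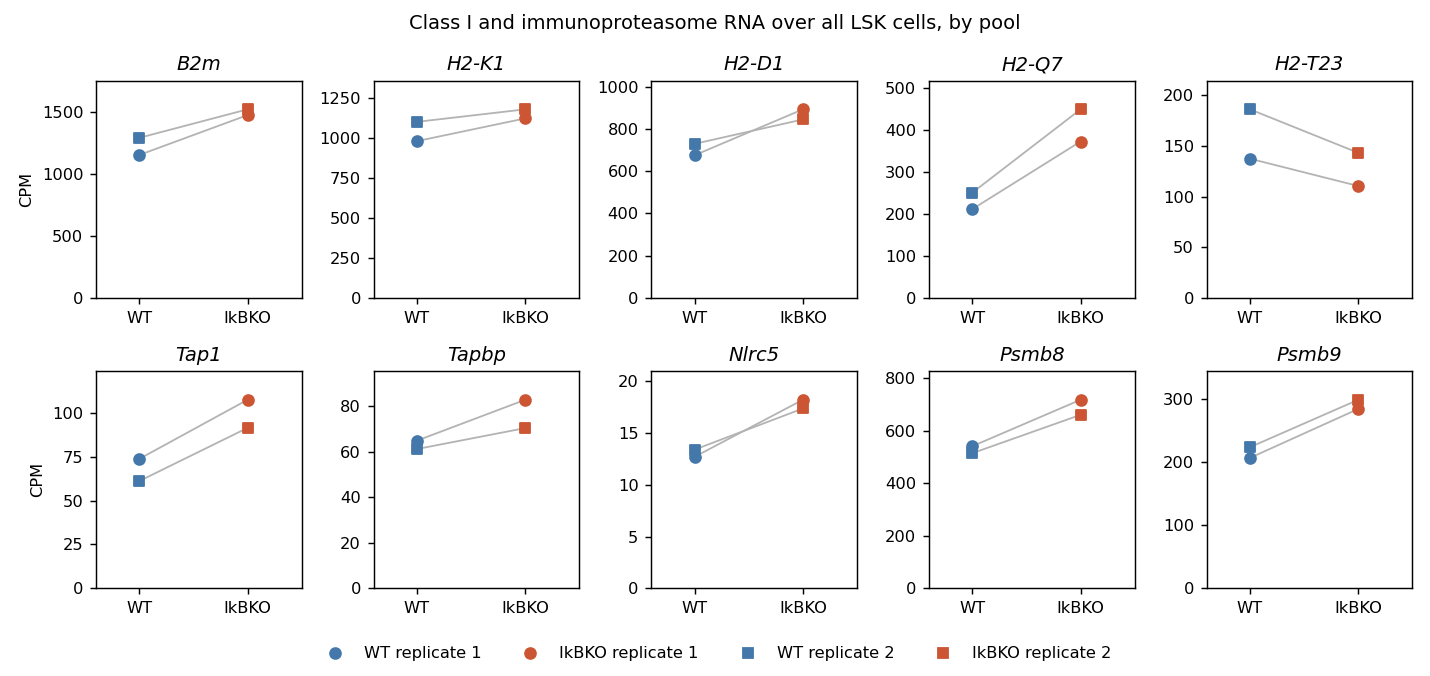
Level of each of the 10 genes over all LSK cells in CPM, with 1 point per pool, circles for replicate 1, squares for replicate 2 and a line joining the pools of 1 library. In 9 panels both IkBKO points lie above both WT points, and H2-T23 slopes down in both replicates.

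Both IkBKO pools lay above both WT pools for 9 of the 10 genes, and 15.6% of all genes tested did the same. Without the replicate block edgeR called 0 of the 10 genes and 0 of 14742 genes over all LSK cells (1410 at an unadjusted p under 0.05), at 0% of genes called. With 1 pool left out no fit with the block has residual degrees of freedom, so these fits had none and are read against that one: each of the 4 called 0 of the 10 genes, beside 0.62% of genes without WT replicate 1, 0.44% without IkBKO replicate 1, 0.162% without WT replicate 2 and 0.911% without IkBKO replicate 2. DESeq2 with the block called the same 8 as edgeR, beside 11.2% of its 14010 genes.

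To see whether the difference lay in most cells or in few, each cell was thinned to 5000 UMIs. The 10 genes together then had a median of 20 and 22 UMIs per WT cell and of 27 and 26 UMIs per IkBKO cell in replicates 1 and 2. The 10th percentile was 13 and 14 UMIs in WT and 17 and 17 UMIs in IkBKO cells, and the 90th percentile was 30 and 31 UMIs in WT and 41 and 39 UMIs in IkBKO cells. The IkBKO curves were thus shifted at low, middle and high percentiles, and the gap in UMIs was wider at the top. For B2m alone the medians were 6 and 6 against 8 and 8 UMIs, and for the 4 heavy chains together 10 and 11 against 13 and 13 UMIs. Cells under 5000 UMIs (1749 in all) were left out, and unthinned medians of the 10 genes were 42 and 32 UMIs in WT and 75 and 52 UMIs in IkBKO cells. These medians were not tested: with 2 pools a genotype an exact two-sided permutation test gives a p of 0.333 at the least.

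**Figure D2:**
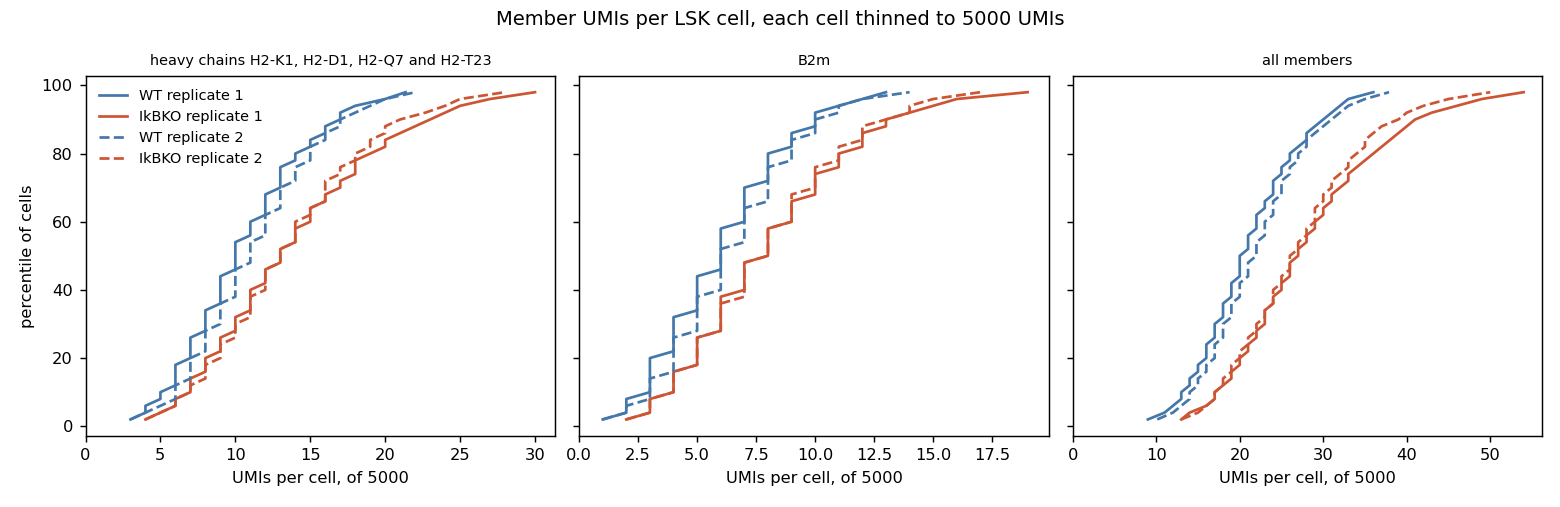
Percentile of LSK cells (vertical axis) against UMIs per cell after thinning every cell to 5000 UMIs (horizontal axis), for the 4 heavy chains, B2m and all 10 genes, with solid lines for replicate 1 and dashed lines for replicate 2. Both IkBKO curves lie to the right of both WT curves along most of their length, with medians of 27 and 26 against 20 and 22 UMIs for all 10 genes.

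The genotypes were next compared within cells marked by 1 lineage gene each: at least 1 UMI of Mecom (stem cells), 3 of Dntt (lymphoid), 20 of Mpo (myeloid), 3 of Pf4 (megakaryocyte) or 5 of Car1 (erythroid). The summed level of the 6 other markers listed for each lineage was highest in its own gate in all 4 pools, 20 of 20 in all. Of the 18029 cells, 40.9% passed none of these gates and 6.59% passed more than 1. A gate on UMIs takes the deeper cells. Median depth in the Mpo gate was 19454.5 to 22883 UMIs per cell, against 7286 to 11085.5 in the Mecom gate. The spread shared over genes was estimated apart for each gate, so p-values and counts of genes called are not comparable between gates. B2m passed in the Dntt gate at 0.28 ± 0.10 but not in the Mpo gate at 0.50 ± 0.11.

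In the Mecom gate 8 of the 10 genes rose, 0 fell, and H2-T23 and Tapbp did not pass, beside 10.6% of 12975 genes called (6.2% higher, 4.38% lower). H2-Q7 stood at 249.8 and 274 CPM in 1106 and 1761 WT cells and at 514 and 504 CPM in 738 and 1714 IkBKO cells. The pools of a genotype lay close together and far from those of the other, and H2-Q7 rose by 1.00 ± 0.07 (adjusted p = 6.19e-06). H2-K1, which did not pass over all LSK cells, stood at 1085 and 1203 CPM in the WT pools and 1281 and 1298 CPM in the IkBKO pools and rose by 0.21 ± 0.05 (adjusted p = 0.0139). The median of the 10 genes was 0.39, beside −0.0027 over all genes tested. DESeq2 called 6 of the 10 and 2.62% of its genes, without H2-K1 and Nlrc5. The makeup of this gate differed by genotype. Stem cell markers summed to 629 and 999.6 CPM in the WT pools and to 372 and 666 CPM in the IkBKO pools. Myeloid markers summed to 1544 and 747 CPM in the WT pools and to 3060 and 1649 CPM in the IkBKO pools. The part of this makeup in the result was not tested. Dendritic cell markers summed to 206 and 319 CPM in the WT pools and 799 and 717 CPM in the IkBKO pools of this gate, where Itgax, Batf3 and Siglech stood at 0.062 to 1.89 CPM each, and without cells past a marker limit 8 members were called too, beside 16.6% of genes.

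In the Dntt gate 7 genes rose and 1 fell, beside 12.8% of 11851 genes called (6.81% higher, 5.95% lower). H2-T23 fell by 0.50 ± 0.10 (adjusted p = 5.64e-04), from 143 and 171 CPM in the WT pools to 120.1 and 92.8 CPM in the IkBKO pools. The H2-T23 pools did not overlap here. Psmb9 rose by 0.56 ± 0.09 (adjusted p = 5.97e-07), from 222 and 234 CPM to 319 and 319 CPM. The replicates differed in this gate: B2m stood at 1197 and 1215 CPM in the WT pools and 1537 and 1256 CPM in the IkBKO pools, and H2-K1 at 919.7 and 983 CPM in the WT pools and 1149 and 957 CPM in the IkBKO pools. DESeq2 called Psmb8 and Psmb9 only (1.52% of its genes), and H2-T23 did not pass there (−0.49, adjusted p = 0.188). Without cells past a marker limit edgeR called 5 of the 10 and 10.8% of genes. Dendritic cell markers in the gate summed to 138 and 239 CPM in the WT pools and 1040.0 and 553 CPM in the IkBKO pools. Of these, Itgax, Batf3 and Siglech stood at 0 to 19.0 CPM each. B cell markers summed to 105 and 149 CPM in the WT pools and 240 and 286 CPM in the IkBKO pools. Stem cell markers summed to 219 and 376 CPM in the WT pools and 105 and 147 CPM in the IkBKO pools. The part of this makeup in the result was not tested.

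In the Mpo gate H2-Q7 was the 1 gene of the 10 called, beside 0.302% of 11607 genes (0.164% higher). It stood at 100.1 and 75.5 CPM in 339 and 40 WT cells and at 193 and 261 CPM in 1473 and 510 IkBKO cells, and rose by 1.32 ± 0.20 (adjusted p = 0.0339). The call was lost with gates set on thinned cells (0.4% of genes called) and with cells that passed no other gate (0.386%). The other 9 had values between −0.32 for H2-T23 and 0.97 for Nlrc5. B2m, at 875 and 849 CPM in the WT pools and 1216 and 1203 CPM in the IkBKO pools, lay apart in both replicates without passing (0.50 ± 0.11, adjusted p = 0.198). In the 40 WT cells of replicate 2 neutrophil markers summed to 9003 CPM, against 815 CPM in the WT cells of replicate 1 and 259 and 530.1 CPM in the IkBKO pools; their part in the result was not tested.

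In the Pf4 gate 6 genes rose, 0 fell, and H2-K1, H2-T23, Tapbp and Nlrc5 did not pass, beside 1.47% of 10415 genes (0.739% higher, 0.73% lower). H2-Q7 stood at 355 and 310.4 CPM in 113 and 196 WT cells and at 773 and 629.9 CPM in 264 and 586 IkBKO cells and rose by 1.10 ± 0.09 (adjusted p = 2.1e-10). Tap1 rose by 0.85 ± 0.14 (adjusted p = 4.16e-04), from 57.9 and 62.8 CPM to 132 and 90.2 CPM. DESeq2 called H2-Q7 only, beside 0.219% of its genes. The replicates of this gate differ in makeup: megakaryocyte markers summed to 1538 and 1156 CPM in the WT pools and IkBKO cells of replicate 1 and to 529 and 708 CPM in replicate 2, where the WT stem cell markers stood at 911 CPM. Dendritic cell markers summed to 71.2 and 288 CPM in the WT pools and 365 and 611 CPM in the IkBKO pools of the gate, with Itgax, Batf3 and Siglech at 0 to 1.89 CPM each, and their part in the result was not tested.

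In the Car1 gate all 10 genes rose, 9 of them by 0.77 (H2-K1) to 1.84 (H2-Q7), beside 3.46% of 9345 genes called (1.79% higher). H2-Q7 stood at 208 and 174 CPM in the WT pools and at 777 and 529.5 CPM in the IkBKO pools and rose by 1.84 ± 0.15 (adjusted p = 1.3e-19). B2m stood at 958 and 967 CPM in the WT pools and 1961 and 1433 CPM in the IkBKO pools and rose by 0.85 ± 0.12 (adjusted p = 5.47e-09). H2-T23, lower in IkBKO cells of the Dntt gate, stood at 113 and 76.7 CPM in the WT pools and at 229 and 101 CPM in the IkBKO pools of the Car1 gate, where it rose by 0.92 ± 0.19 (adjusted p = 5.67e-04) with overlapping pools. Without the IkBKO pool of replicate 1 H2-T23 was at −0.089. Nlrc5 had 7 and 1 UMIs in the WT pools against 109 and 60 UMIs in the IkBKO pools, too few in WT for a fold. Counts in the WT pool of replicate 2 were low for others too, with 5 UMIs of Tap1, 9 of Tapbp, 15 of H2-T23 and 24 of Psmb9. These values rest on 52 and 9 WT cells against 253 and 224 IkBKO cells, and 2 of the 10 (H2-Q7 and Psmb9) were called without the replicate block, 0 without either WT pool, 2 without the IkBKO pool of replicate 1 and 10 without that of replicate 2. Markers of maturing red cells summed to 2575 and 1985 CPM in the WT cells and to 14.2 and 121 CPM in the IkBKO cells, and their part in the result was not tested. Without cells past a marker limit, globin included, all 10 stayed called (1.64% of genes), with B2m at 1.00 ± 0.11 and H2-Q7 at 1.78 ± 0.15. That filter kept 46 and 8 of the 52 and 9 WT cells. Red cell markers were not summed in the cells kept, so it does not test their part. DESeq2 called 7 of the 10, not H2-T23, Tapbp or Nlrc5 (whose adjusted p it did not give), beside 0.939% of its genes.

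**Figure D3:**
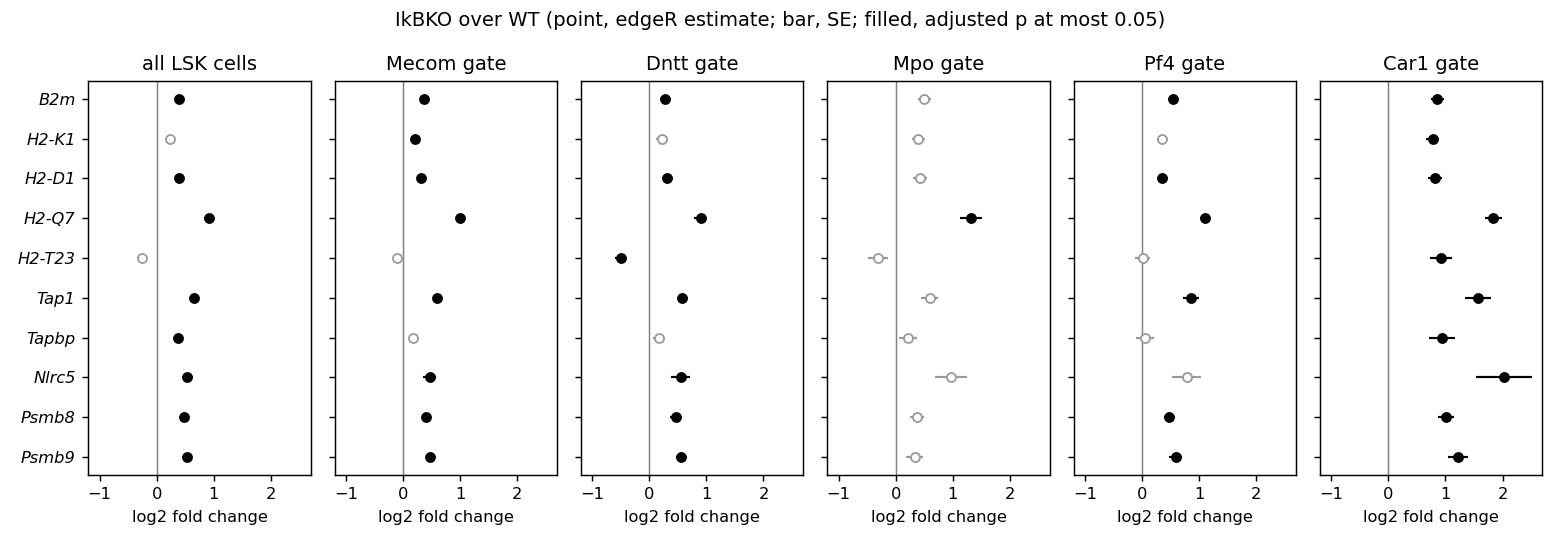
Log2 fold change, IkBKO over WT, of each of the 10 genes over all LSK cells and in the 5 gates, with SE bars and filled points for adjusted p of at most 0.05 in edgeR. H2-Q7 is filled in every panel, from 0.90 in the Dntt gate to 1.84 in the Car1 gate, and H2-T23 lies left of 0 in the Dntt panel and right of it in the Car1 panel.

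Whether the genotype effect differed between gates was tested in 20 pools of cells that passed exactly 1 gate. By edgeR's quasi-likelihood interaction test 0 of the 10 genes passed, with adjusted p from 0.243 (B2m) to 1; over all 12354 genes 7 were called (0.0567%), and 560 had an unadjusted p under 0.05. Between pairs of gates, 1 of the 100 edgeR contrasts of the 10 genes passed. The B2m effect was higher in the Car1 than in the Dntt gate by 0.70 ± 0.14 (adjusted p = 0.037), where 0.113% of genes were called. Adjustment was over genes within a contrast and not over the 10 gate pairs. Of all genes, 0.0809% were called between the Car1 and Mecom gates, 0.0486% between Dntt and Mecom, 0.0162% between Mpo and Dntt, 0.00809% between Mpo and Mecom and between Car1 and Mpo, and 0 in the other pairs. The differing size of the effects in the gates, H2-T23 included, is otherwise not shown by these tests. Without the IkBKO pool of replicate 2 the interaction test called 5 of the 10 genes and 1.37% of all.

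The levels of 8 of the 10 genes differed between gates (edgeR, 4 coefficients; 77.4% of all genes did), and those of H2-D1 and Tap1 did not pass (adjusted p = 0.613 and 0.124). By these tests heavy chain, B2m and Nlrc5 RNA, H2-D1 excepted, was lower in the Mpo gate than in the Mecom gate. The tests used TMM scaling and cells of 1 gate only, while the CPM values are of whole gates without TMM. The sizes can therefore differ. H2-D1 had a mean of 712 CPM in the Mecom and 598 CPM in the Mpo gate of WT cells, but its contrast, Mpo minus Mecom, was 0.03 ± 0.11. In WT cells H2-Q7 ran from the Pf4 gate (mean 333 CPM over 2 pools, range 310.4 to 355) through the Mecom (262, 249.8 to 274), Dntt (197, 183 to 212) and Car1 (191, 174 to 208) gates to the Mpo gate (87.8, 75.5 to 100.1). The ranges of the Dntt and Car1 gates overlapped and those of the other neighbours did not. Over all 20 pools H2-Q7 was lower in the Mpo than in the Mecom gate by 1.32 ± 0.21 log2 units (adjusted p = 7.86e-05), and H2-T23 by 1.30 ± 0.25, Nlrc5 by 0.87 ± 0.15, H2-K1 by 0.45 ± 0.12 and B2m by 0.37 ± 0.10, all called (61.4% of all genes were).

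Psmb8 had another order. In WT cells it was highest in the Dntt gate (595 CPM, 570.4 to 619) and Mpo gate (590.2 CPM, 580.1 to 600.3), whose ranges overlapped, then came the Mecom (486, 485 to 486), Pf4 (407, 364 to 449.8) and Car1 (265, 253 to 276) gates. In the edgeR gate contrasts Psmb8 was higher in the Mpo than in the Mecom gate by 0.57 ± 0.12 (adjusted p = 3.95e-04). It was higher in the Dntt than in the Mecom gate by 0.53 ± 0.12 (adjusted p = 0.00187, 29.3% of all genes called). Both contrasts follow TMM scaling and are larger than the plain CPM values above show. Psmb9 ranged in WT cells from 229 CPM (Mpo) to 129 CPM (Car1), and the ranges of neighbouring gates overlapped except those of the Pf4 (151 to 212) and Car1 (123 to 135) gates. With replicate in place of the pool as the block, H2-T23 and Psmb8 were the 2 genes that still differed between gates, beside 74.2% of all genes. Without the IkBKO pool of replicate 2, 4 genes did (H2-Q7, H2-T23, Nlrc5 and Psmb8), beside 68.5% of all.

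**Figure D4:**
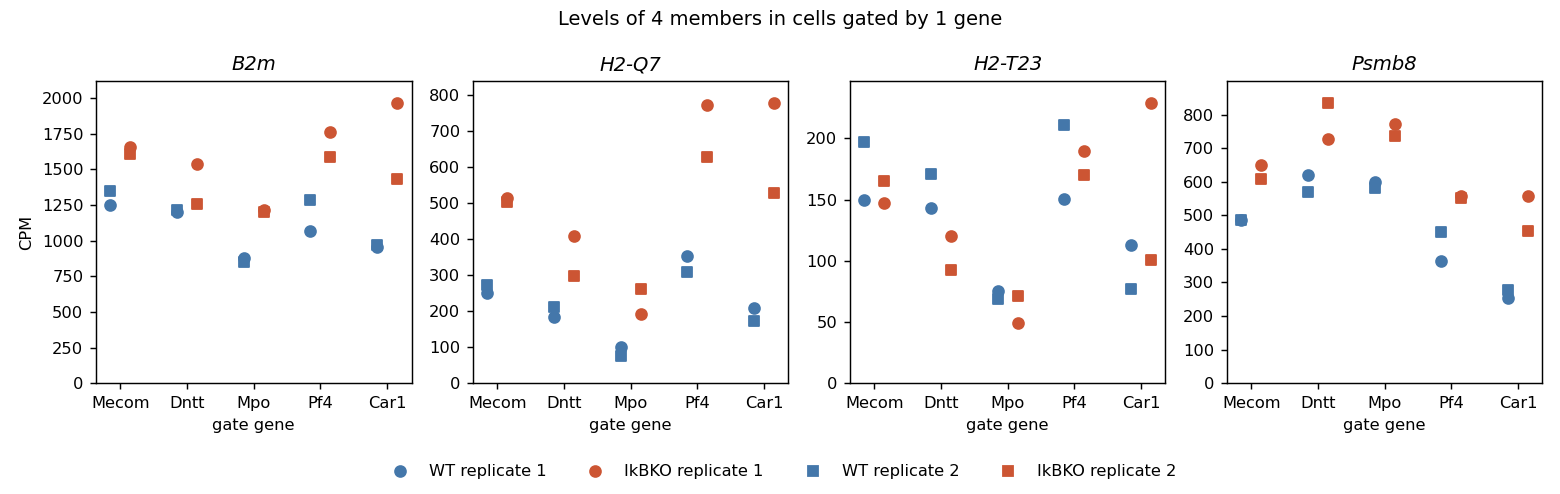
Level in CPM of B2m, H2-Q7, H2-T23 and Psmb8 in cells gated by Mecom, Dntt, Mpo, Pf4 or Car1, with 1 point per pool. Within each genotype the Mpo gate holds the lowest H2-Q7 and H2-T23 levels, while Psmb8 in WT cells is lowest in the Car1 gate.

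The immunosubunits replace subunits of the constitutive core, so their share was taken as UMIs of Psmb8, Psmb9 and Psmb10 over those plus Psmb5, Psmb6 and Psmb7. These are 3′ molecule counts, and only the change of the share between pools is read. Over all LSK cells the share was 62.7% (95% Wilson interval 62.3 to 63.1) and 62.4% (62.0 to 62.8) in WT and 64.7% (64.5 to 65.0) and 65.0% (64.8 to 65.3) in IkBKO cells, higher by 2.06 and 2.63 percentage points; the intervals cover counting error only. For Psmb8 against Psmb5 the gain was 2.19 and 2.83 points and for Psmb9 against Psmb6 1.30 and 4.27 points, whereas for Psmb10 against Psmb7 it was 4.25 and −1.81 points, so the replicates went opposite ways. In the Car1 gate the share stood at 43.1% (40.1 to 46.1) and 37.6% (32.0 to 43.6) in WT and at 65.8% (64.6 to 67.0) and 55.3% (54.1 to 56.4) in IkBKO cells. The summed share was higher in IkBKO cells of every gate in both replicates, by 1.11 points (Dntt gate, replicate 1) to 22.7 points (Car1 gate, replicate 1). Of the single pairs, Psmb8 against Psmb5 did the same. Psmb9 against Psmb6 differed by −0.09 and 0.33 points in the Mpo gate and gained in the others. Psmb10 against Psmb7 gained in every gate of replicate 1. In replicate 2 it was at −1.84 (Mecom), −3.33 (Dntt) and −0.35 points (Pf4) and gained in the Mpo and Car1 gates.

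**Figure D5:**
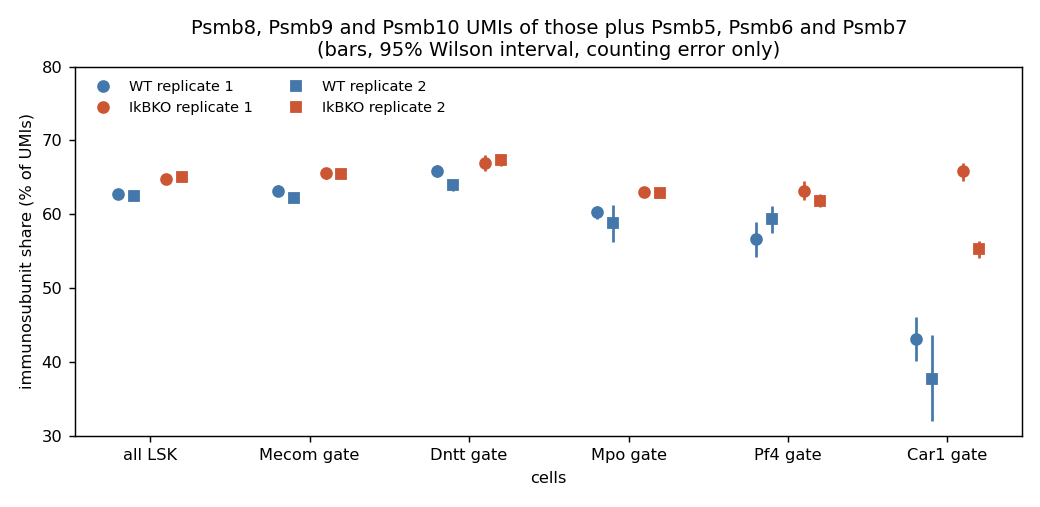
Share of immunosubunit UMIs (Psmb8, Psmb9, Psmb10) among UMIs of the 3 immunosubunits and the 3 subunits they replace, in percent, for each pool over all LSK cells and in each gate, with 95% Wilson intervals (counting error only; the axis starts at 30%). The IkBKO points lie above the WT points of their library in every gate, and the WT points of the Car1 gate, at 43.1% and 37.6%, lie below all others.

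The constitutive core rose in part as well: over all LSK cells 6 of its 14 subunits rose and 0 fell (7.13% of all genes were called higher), with a median of 0.40, including Psma5 (0.48 ± 0.09), Psmb4 (0.45 ± 0.09), Psmb3 (0.44 ± 0.09) and Psmb7 (0.41 ± 0.09). In the Car1 gate 0 of these 14 were called, beside 3.46% of all genes. Their median was −0.09 beside 0.97 for the 10 class I and immunoproteasome genes, Nlrc5 included. Of the 4 other genes of the immunoproteasome and its activator, Psme2, the PA28β subunit, rose over all LSK cells (0.58 ± 0.13), and Psmb10 (0.48 ± 0.15, adjusted p = 0.0899), Psme1 and Pomp did not pass. In the Car1 gate Psmb10 rose by 1.24 ± 0.20, and Psme1 and Psme2 rose too.

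The counts that follow are over all LSK cells, where 13.3% of all genes were called and 7.13% were called higher. Of the 13 other heavy chain genes listed, H2-T10 had no match by symbol and 9 passed the filter on low counts; 3 of the 9 rose and 0 fell. H2-Q6, a Qa-2 chain beside H2-Q7 (chromosome 17, 35424850 to 35430055), rose by 0.73 ± 0.09, from 65.9 and 78.3 CPM to 107 and 117 CPM. H2-T22, a ligand of γδ T cells, rose by 0.57 ± 0.10. H2-T3, the thymus leukaemia antigen gene, had 0 and 3 UMIs in the WT pools against 29 and 79 UMIs in the IkBKO pools, too few in WT for a fold. Of 9 further peptide loading and trimming genes 2 rose and 0 fell: Calr (calreticulin, 0.73 ± 0.07) and Pdia3 (ERp57, 0.43 ± 0.10). Both are general chaperones of the endoplasmic reticulum as well. Calr is also listed among the myeloid markers of the Mpo gate, which held 339 and 40 WT cells but 1473 and 510 IkBKO cells. Within that gate the plain log2 ratio of Calr was −0.05 and 0.08. The part of cell makeup in the result was not tested. Of 19 regulators of class I genes 5 rose and 0 fell, among them Irf8 (1.23 ± 0.13), Ifngr2 (the signalling chain of the interferon-γ receptor, 0.77 ± 0.12) and Irf1 (0.57 ± 0.08), with a median of 0.03 over the 19. In cells that passed none of the gates Calr (0.20), Pdia3 (0.09), Psmb7 (0.14), Psmb3 (0.17) and Irf8 (1.51) were no longer called, while 9 of the 10 class I and immunoproteasome genes were, beside 12.4% of all genes.

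Over the 20 pools of single-gate cells, B2m followed the mean of the other 9 genes most closely (Pearson r = 0.94 of z-scored log2 CPM, a description over pools that share libraries and differ in depth), followed by H2-D1 (0.94) and H2-K1 (0.92). Psmb8 (0.47), H2-T23 (0.52) and Tapbp (0.60) followed it least. Among 7975 genes with a mean of at least 10 CPM, the 5 most like the mean of the 10 were Iigp1 (r = 0.97), H2-T22 (0.97), Igtp (0.97), H2-Q4 (0.94) and Gm4951 (0.94). Iigp1 and Igtp encode immunity-related GTPases. In the Car1 gate Iigp1 had 2 and 0 UMIs in WT against 783 and 228 UMIs in IkBKO cells.

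Nfkbie, whose RNA fell in IkBKO cells, lies on chromosome 17 as well (45555703 to 45563169), 9.52 to 11.6 Mb from the 8 members there. Of 370 tested genes within 15 Mb of Nfkbie on that chromosome 21.1% were called over all LSK cells, against 13.1% of the other 14372 genes, and without the members the share was 19.9% of 362 genes. The part of chromosomal position in the results was not tested. B2m and Nlrc5, on other chromosomes, rose by 0.39 and 0.54. Their values do not bear on the 8 members on chromosome 17.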

How the data were processed

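RNA of single LSK cells was counted with the 10x 3′ v3.1 chemistry. The deposited matrices hold raw UMI counts per gene and barcode; per the file headers they were written by Cell Ranger 6.0.0, while the submitters' processing notes name Cell Ranger 7.0, Seurat 4.3.0 and mm10. A deposited table marks the barcodes that passed quality control and their genotype, with no rule stated in the labels: 7683 of 9322 and 10346 of 24787 barcodes passed, 18029 cells in all, used without a further filter. No doublet caller was run.

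Counts were summed per replicate and genotype (42165571 to 62834572 UMIs per pool), over all cells and in each of 5 gates. Genes were tested with edgeR 4.0.16 in R 4.3.3 (quasi-likelihood F test, robust, TMM, filterByExpr, replicate as a block, two-sided), Benjamini-Hochberg adjusted over all genes tested and called at 0.05. The block was used since each library mixed the genotypes, per the labels; deviations of same-numbered pools correlated at 0.686 over 14742 genes. The gate and interaction tests used 20 pools of cells that passed 1 gate, with the pool of origin as a block. Steps were tested on simulated counts. DESeq2 1.42.0, other scalings, filters, blocks, cell sets and leaving out each pool (genotype fits then without the block) were alternatives. Marker limits were, in UMIs per cell, 10 for Cd74, 50 for S100a8 with S100a9, 3 for Cd79a with Cd79b, 3 for T cell receptor genes, 50 for globins and 50 for Mcpt8 with Cpa3. Free RNA in droplets was not removed. Annotation was GENCODE for GRCm38, which held 99.8% of gene identifiers; promoters were matched by symbol for 9 of the 10 genes. Named were all 10 genes, up to 4 called genes of each other list by smallest p, and the 5 genes most like the 10; 1 gene that the rule names is not reported here. The 10 genes, the lists and the tests were chosen with earlier results of these data known.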

Additional observations from a re-analysis of the deposited data

Results flagged for a closer look

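The IkBKO-over-WT effect on B2m was higher in the Car1 gate than in the Dntt gate by 0.70 ± 0.14 log2 units (edgeR interaction contrast, adjusted p = 0.037, 0.113% of genes called). That p was adjusted over genes within this contrast and not over the 10 gate pairs. It was the 1 pass among 100 contrasts of the 10 genes. The B2m contrast rests on 48 and 7 WT cells of the Car1 gate that passed no other gate. B2m did not pass the edgeR interaction test over all 5 gates (adjusted p = 0.243). In the whole gates the B2m difference in both replicates was larger in the Car1 gate (1.03 and 0.57, plain log2 ratio of CPM) than in the Dntt gate (0.36 and 0.05). The 52 and 9 WT cells of the whole Car1 gate held 2575 and 1985 CPM of red cell markers against 14.2 and 121 CPM in IkBKO cells, and their part in the result was not tested.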

How the results depend on the processing

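Counts are of the 10 genes called. Over all LSK cells 8 were called, and 7 to 9 with RLE scaling, DESeq2, no filter, scaling by cells, and without marker-limit or top 5% cells. Without the replicate block 0 were called over all LSK cells, 1 in the Mecom, 1 in the Dntt, 0 in the Pf4 and 2 in the Car1 gate, and H2-Q7 stayed called in the Mpo gate; genes called in all fell from 1373 to 53, 1512 to 125, 153 to 1, 323 to 32 and 35 to 19 in the Mecom, Dntt, Pf4, Car1 and Mpo gates in that order. Leaving out 1 pool also takes away the block, which 3 pools cannot fit. It left 0 called over all LSK cells, 0 to 1 in the Mecom, Dntt and Mpo gates, 0 in the Pf4 gate and 0 to 10 in the Car1 gate (0 without either WT pool, 2 without IkBKO replicate 1, 10 without IkBKO replicate 2). DESeq2 called 2 in the Dntt and 1 in the Pf4 gate, and the cause was not tested. In the Dntt gate 5 were called without marker-limit cells. In the Mpo gate 3 were called with no filter, 0 with gates on thinned cells and 0 with cells of no other gate. The interaction test called 5 with no filter (255 genes in all), 0 to 5 with a pool left out (5 without IkBKO replicate 2), and 0 without the Car1 gate, an alternative chosen after seeing the data, as was the set of cells of no gate. The gate test called 2 with replicate as the block and 4 to 8 with a pool left out. These signs turned, for genes called in neither setting. Over all LSK cells H2-T23 stood at 0.081 with scaling by cells and 0.13 in cells of no gate, and Nfkbia at 0.17 and 0.37 there and −0.42 to 0.12 with a pool left out. H2-T23 in the Mecom gate stood at −0.26 to 0.063 with a pool left out, 0.012 on thinned cells and 0.037 in cells of no other gate. H2-T23 in the Pf4 gate stood at −0.11 to 0.22 with a pool left out and −0.0010 without marker-limit cells. With a pool left out Tapbp stood at −0.071 to 0.41 in the Dntt, −0.050 to 0.42 in the Mpo and −0.080 to 0.29 in the Pf4 gate, where it was at −0.047 without marker-limit cells, −0.0086 on thinned cells and −0.057 in cells of no other gate. H2-T23 in the Car1 gate, called with all pools, ranged from −0.089 (without IkBKO replicate 1) to 1.23 with a pool left out.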
